A study of Mus musculus with 6 samples.

Results

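Matrix metalloproteinases (MMPs) and their tissue inhibitors (TIMPs) were followed in nuclei of photothrombotic (PT) lesions of the mouse cortex at 7 and 21 days post-injury (dpi). The members were 9 genes, chosen by name from the 32285 genes of the deposited counts: the secreted proteases Mmp2, Mmp3, Mmp12 and Mmp19, the membrane-type proteases Mmp14 and Mmp16, and the inhibitors Timp1, Timp2 and Timp3. All 9 were found. Each was summed as unique molecular identifiers (UMIs) in each library and in each class of nuclei, and is given per 1000000 non-mitochondrial UMIs of that class (CPM).

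MMPs are zinc-dependent endopeptidases that cut collagens, elastin, proteoglycans and other proteins outside the cell. Most are made as inactive precursors, and the membrane-type protease MMP14 activates pro-MMP2 at the cell surface in a complex with TIMP2. TIMPs block the active site, and TIMP3 is the one that stays bound to the extracellular matrix (ECM). In injured brain the family is known for opening the basement membrane of vessels and for remodelling scar tissue. Levels of mRNA in nuclei tell nothing of how much enzyme was active, since precursor cleavage and inhibition act on the protein.

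PT injury closes cortical vessels with light and a photosensitive dye. All 6 libraries came from dissected PT lesions, and each pooled 1 male and 1 female mouse and was the only library of its group. Ctrl mice were wild type and had no treatment in the labels. Tgfbr2-cKO mice carried Col1a2(creER) and Tgfbr2(flox), so that tamoxifen, given before and during the injury period, removed the type II TGFβ receptor from cells in which the Col1a2 promoter drives Cre, mainly fibroblasts. ADWA11 mice were wild type and received the antibody ADWA11, which blocks integrin αvβ8, an activator of latent TGFβ, from the day of injury on. With 1 library per group no test between groups was possible, and the 95% intervals given here cover counting error only. Whether a difference exceeds that between mice could be seen only by splitting a library into its female and male nuclei, which stand for 1 mouse each. Nuclei with UMIs of Xist and none of Y-linked genes were called female, and the reverse male. Of the 61917 nuclei that passed the filters 27822 were called female and 21550 male. The rest lie in neither part, so the parts are not the whole library.

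The deposited counts held 67360 nuclei, of which 61917 passed the filters, with 64798965 to 140310354 UMIs per library and 140 to 217 barcodes per library that also occurred in another library. Of the nuclei that passed, 16916 were fibroblast-like, 23209 myeloid-like, 1702 endothelial-like and 509 mural-like by their markers. The 9 fibroblast markers summed to 3925 to 11248 CPM in fibroblast-like nuclei, and none of them was at 0 in any library. Fibroblast-like nuclei numbered 403 in the Tgfbr2-cKO library at 7 dpi and 1039 at 21 dpi, against 2415 to 6640 in the other libraries. Tgfbr2 itself stood in fibroblast-like nuclei at 330 CPM (Ctrl) and 245 CPM (Tgfbr2-cKO) 7 days after injury, and at 235 CPM and 191 CPM after 21 days. These counts cover the whole gene and do not test the floxed exon. Both Tgfbr2-cKO libraries held many more neurons than the others, with 5910 neuron-like nuclei at 7 dpi and 765 at 21 dpi against 10 to 190 elsewhere. Neuron markers also summed to 206 CPM and 64.7 CPM in their fibroblast-like nuclei, against 2.09 to 7.80 CPM in the other libraries. What part this had in the results was not tested.

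Mmp3 and Mmp12, on which the results turn, lie near each other in an MMP cluster on mouse chromosome 9 (GRCm38), Mmp3 at 7445822 to 7455975 and Mmp12 at 7344381 to 7369499, both on the plus strand. Their promoters from RefSeq (GRCm38.p6, 250 bases before to 50 after the start) are shown because both carry the same motif near the start, a TGAGTCA in capitals. The motif searched was TGANTCA, the core bound by AP-1 factors, which reads the same on both strands apart from the base N. The Mmp3 window is chr9:7445572-7445871 and the Mmp12 window, that of the second of 2 annotated starts, is chr9:7347124-7347423, both plus strand.
Mmp3: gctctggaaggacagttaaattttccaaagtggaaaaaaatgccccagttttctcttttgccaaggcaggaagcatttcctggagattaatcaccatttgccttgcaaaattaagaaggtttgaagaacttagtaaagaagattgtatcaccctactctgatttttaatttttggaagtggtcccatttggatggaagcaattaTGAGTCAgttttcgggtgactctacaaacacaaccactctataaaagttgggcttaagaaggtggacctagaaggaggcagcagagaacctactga
Mmp12: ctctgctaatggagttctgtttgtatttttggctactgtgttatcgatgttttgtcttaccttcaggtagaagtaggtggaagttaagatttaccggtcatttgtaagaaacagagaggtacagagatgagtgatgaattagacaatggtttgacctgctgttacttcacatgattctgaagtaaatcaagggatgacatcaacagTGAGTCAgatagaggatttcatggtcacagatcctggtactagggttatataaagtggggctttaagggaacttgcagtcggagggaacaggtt
The match began 46 bases before the start of Mmp3 and 44 bases before this start of Mmp12. No TGANTCA occurred in the window of the other Mmp12 start, nor in those of Mmp14, Timp1, Timp2 and Timp3. The promoter table held 6 of the 9 members, with no entry for Mmp2, Mmp19 and Mmp16. Of all 32544 promoters of the same length 7.79% held the motif, and a match is a description of the letters only.

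The other members lie on other chromosomes, Mmp2 on chromosome 8 at 92827291 to 92853420, Mmp14 on 14 at 54431612 to 54445364, Mmp19 on 10 at 128790910 to 128800824 and Mmp16 on 4 at 17852893 to 18119145. Timp1 is on chromosome X at 20870166 to 20874735, Timp2 on 11 at 118301069 to 118355740 and Timp3 on 10 at 86300372 to 86349506, within Syn3, which runs on the other strand. Timp1 also overlaps a gene of the other strand, Syn1, as Mmp12 does with Mmp1b and Mmp19 with Tmem198b and Gm47093. Timp2 overlaps Cep295nl on its own strand, so reads of these 2 genes cannot always be told apart.

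Among all nuclei of a library, most UMIs of Mmp3 lay in fibroblast-like nuclei, from 71.2% in the Tgfbr2-cKO library at 7 dpi to 87.9% in the ADWA11 library at 21 dpi. Mmp12 lay mainly in myeloid-like nuclei, a class that includes microglia, with 65.7% to 91.6% of its UMIs. Timp2 was split between these classes, Timp3 reached its highest class levels in vessels, and Mmp16 was shared with cells of the neural lineage.

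Mmp3 encodes stromelysin, which cuts proteoglycans, fibronectin and basement membrane collagen and can activate other MMPs. In fibroblast-like nuclei it was low in Ctrl and several times higher with Tgfbr2 deletion and with ADWA11, at both times. At 7 dpi it stood at 10.8 CPM (95% interval 9.35 to 12.3, 209 UMIs) in Ctrl, 115 CPM (111 to 119, 3339 UMIs) in ADWA11 and 85.7 CPM (74.4 to 98.2, 208 UMIs) in Tgfbr2-cKO. At 21 dpi it stood at 20.4 CPM (19.0 to 21.9, 773 UMIs) in Ctrl, 182 CPM (177 to 188, 4890 UMIs) in ADWA11 and 113 CPM (106 to 120, 993 UMIs) in Tgfbr2-cKO. The 4 libraries with deletion or blockade were all above both Ctrl libraries. This is an order of pooled libraries and not of single mice, which are given below. How many of all genes had the same order was not counted.

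Against Ctrl, the log2 ratio of Mmp3 was 2.99 (2.71 to 3.28) in Tgfbr2-cKO and 3.41 (3.21 to 3.62) in ADWA11 at 7 dpi. The ratios at 21 dpi were 2.47 (2.33 to 2.60) in Tgfbr2-cKO and 3.16 (3.05 to 3.27) in ADWA11. The ratios at one time share the Ctrl library of that time, so they are not independent of each other. Among all genes tested in fibroblast-like nuclei, those with a mean of at least 5 CPM in the 2 libraries, the share that was 2-fold or more higher was 6.22% in Tgfbr2-cKO and 2.28% in ADWA11 at 7 dpi, and 5.94% and 1.6% at 21 dpi. Mmp3 was the only one of the 9 members past 2-fold higher in any of these 4 comparisons.

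**Figure D1:**
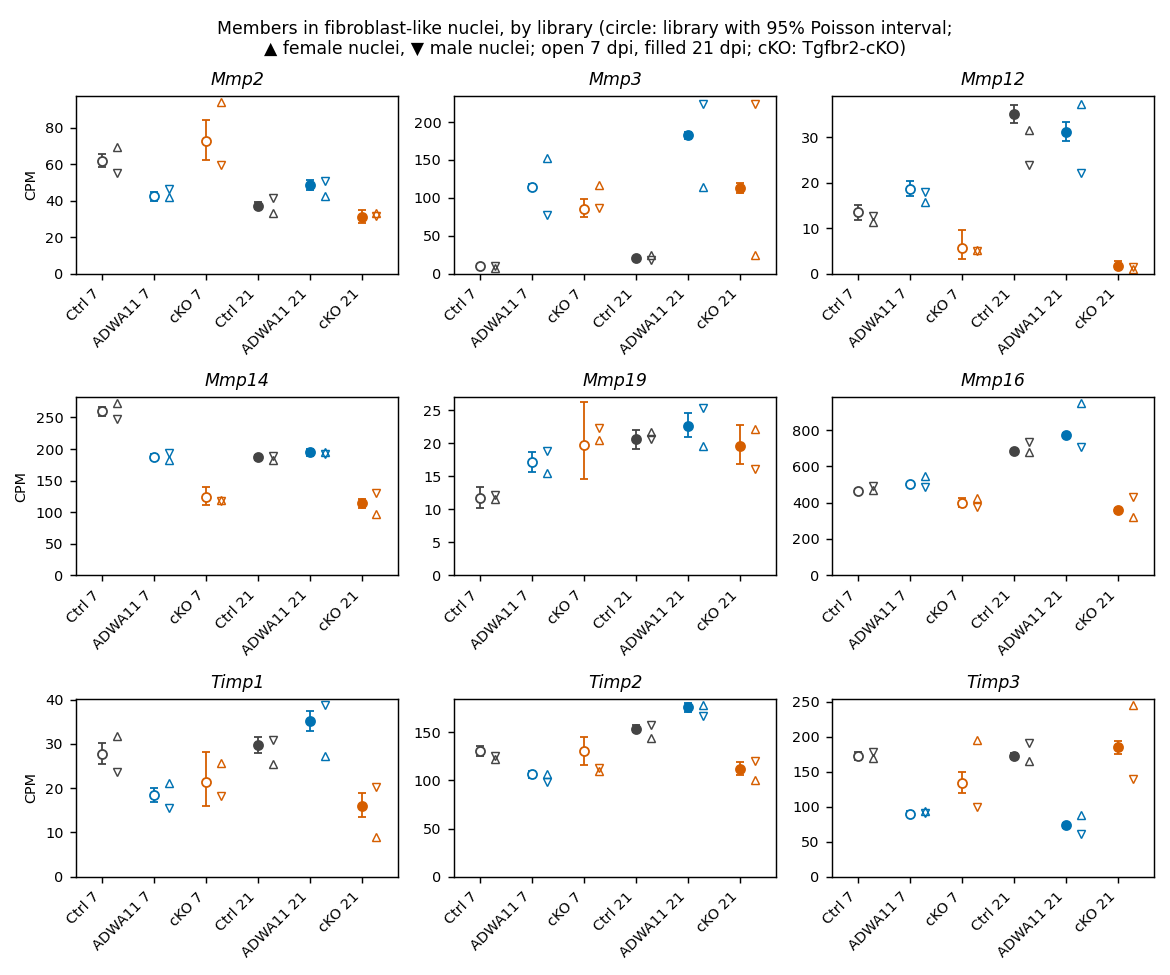
CPM of each of the 9 members in fibroblast-like nuclei of the 6 libraries, with bars for the exact 95% Poisson interval of the count (counting error only, 1 library per group). Mmp3 sits at 10.8 and 20.4 CPM in the Ctrl libraries and at 85.7 to 182 CPM in the other 4, while Timp3 is lowest in the ADWA11 libraries, at 90.4 and 73.5 CPM.

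Split by mouse, Mmp3 was higher than in Ctrl in both mice of 3 of the 4 libraries. At 7 dpi the female and male nuclei stood at 8.07 and 10.6 CPM in Ctrl, 152 and 77.0 CPM in ADWA11, and 117 and 86.2 CPM in Tgfbr2-cKO. At 21 dpi they stood at 24.5 and 17.9 CPM in Ctrl and at 114 and 224 CPM in ADWA11. In Tgfbr2-cKO at 21 dpi the male nuclei stood at 224 CPM and the female nuclei at 24.1 CPM, the level of Ctrl. The Tgfbr2-cKO ratio at 21 dpi therefore rested on 1 mouse, with a log2 ratio of 3.64 over male nuclei and -0.03 over female nuclei.

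A share of the Mmp3 UMIs lay in few nuclei. A single nucleus held 23.0% of them in Ctrl at 7 dpi and 17.8% in Tgfbr2-cKO at 21 dpi, and at most 8.17% in the other 4 libraries. Without the 5 nuclei richest in Mmp3 in each library the log2 ratio was 3.16 in Tgfbr2-cKO and 4.00 in ADWA11 at 7 dpi, and 2.01 and 3.35 at 21 dpi. With nuclei thinned to 2000 UMIs and shallower ones left out, 1.33% of the remaining fibroblast-like nuclei of Ctrl, 8.77% of ADWA11 and 9.32% of Tgfbr2-cKO held an Mmp3 UMI at 7 dpi, and 2.38%, 11.3% and 5.26% at 21 dpi. The nuclei left out were unequal, 242 of 2415 in Ctrl, 156 of 2938 in ADWA11 and 49 of 403 in Tgfbr2-cKO early, and 1733 of 6640, 175 of 3481 and 89 of 1039 late. Before thinning, over all nuclei, the early shares were 3.11%, 19.3% and 11.9% and the late ones 4.08%, 21.1% and 10.1%. The thinned shares in myeloid-like nuclei were 0.214% to 2.43%, and were below those of fibroblast-like nuclei in each library. Levels in myeloid-like nuclei were 10.7 CPM (472 UMIs) in ADWA11 and 0.926 CPM (23 UMIs) in Ctrl at 7 dpi, and 11.5 CPM (374 UMIs) and 3.99 CPM (56 UMIs) at 21 dpi. The 9 fibroblast markers summed to 364 and 524 CPM in myeloid-like nuclei of ADWA11 at the 2 times, against 9682 and 8824 CPM in its fibroblast-like nuclei. What part RNA carried over from fibroblasts had in the myeloid Mmp3 was not tested, and its level there is not read as expression by myeloid cells.

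Within fibroblast-like nuclei, Mmp3 was carried by different sub-clusters at the 2 times. The sub-cluster named myofibroblast-like was marked by Cthrc1, Acta2, Postn, Fn1 and Tagln, while Lrrc15 and Fap of the same list were not among its raised markers. With log-normalised clustering the cluster also led by Spock3 and Slc22a22 was unnamed, and a different cluster was named myofibroblast. At 7 dpi the myofibroblast-like sub-cluster held 59.8% of the Mmp3 UMIs in Ctrl, 66.1% in ADWA11 and 76.0% in Tgfbr2-cKO. It had 43.7%, 41.0% and 34.5% of the fibroblast-like nuclei. Mmp3 stood there at 13.4 CPM (11.1 to 15.9) in Ctrl, 178 CPM (171 to 186) in ADWA11 and 165 CPM (140 to 193) in Tgfbr2-cKO, over 1055, 1205 and 139 nuclei. The log2 ratios within it were 3.74 (3.48 to 4.01) and 3.63 (3.28 to 3.98), so the difference was present inside the sub-cluster. Female and male nuclei of the sub-cluster stood at 8.75 and 9.38 CPM in Ctrl, 228 and 134 CPM in ADWA11, and 188 and 213 CPM in Tgfbr2-cKO.

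At 21 dpi few myofibroblast-like nuclei remained, 67 in Ctrl, 8 in ADWA11 and 4 in Tgfbr2-cKO. The 67 Ctrl nuclei stood at 165 CPM (136 to 198, 115 UMIs) of Mmp3, well above the 13.4 CPM of this sub-cluster in Ctrl at 7 dpi. In ADWA11 an unnamed sub-cluster led by Slc47a2, Slc47a1 and Vsx1 held 81.0% of the Mmp3 UMIs, with 65.7% of the nuclei. It stood at 26.6 CPM (24.1 to 29.4) in Ctrl, 209 CPM (203 to 216) in ADWA11 and 37.0 CPM (25.5 to 52.0, 95 nuclei) in Tgfbr2-cKO. In Tgfbr2-cKO another unnamed sub-cluster, led by Gabrg3 and Ebf3, held 88.2% of the Mmp3 UMIs with 30.3% of the nuclei. Of its 331 nuclei 315 came from that library, so it cannot be told apart from the library. Its 136 female nuclei stood at 46.1 CPM and its 147 male nuclei at 517 CPM. Nuclei of the sub-cluster named arachnoid-like, marked by Aldh1a2, Slc6a13 and Ptgds, stayed low throughout. Their highest value was 27.2 CPM (21.2 to 34.2) in ADWA11 at 21 dpi. An unnamed sub-cluster that also raised 5 arachnoid markers is not covered by this, nor is the Slc47a2 sub-cluster, which raised the arachnoid marker Slc47a1.

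**Figure D2:**
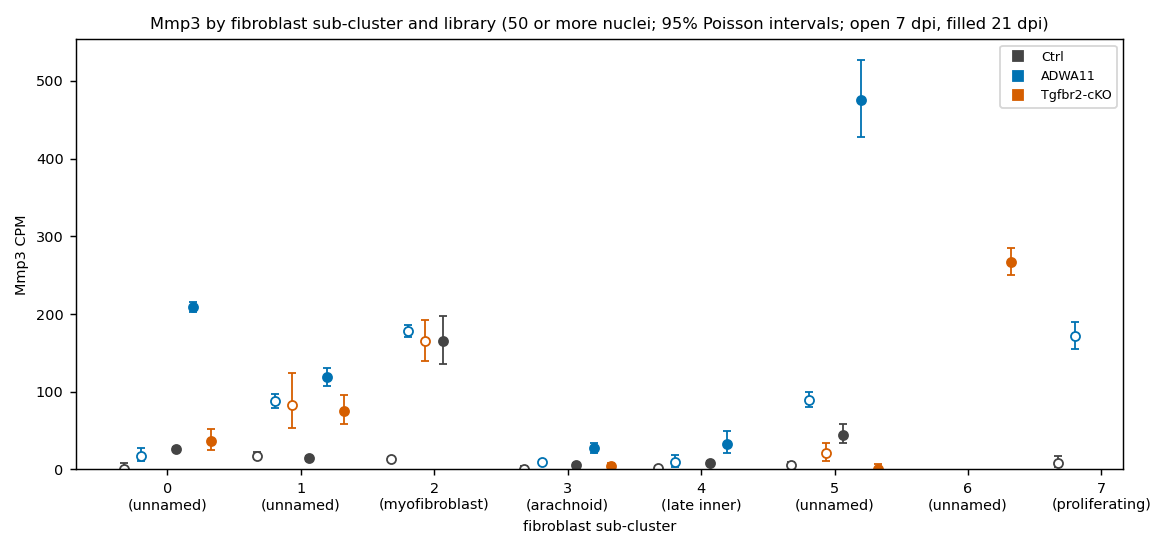
CPM of Mmp3 in the fibroblast-like sub-clusters by library, with exact 95% Poisson intervals (counting error only). At 7 dpi the myofibroblast-like sub-cluster stands at 13.4 CPM in Ctrl, 178 CPM in ADWA11 and 165 CPM in Tgfbr2-cKO, and the sub-cluster made almost only of Tgfbr2-cKO nuclei at 267 CPM at 21 dpi.

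Mmp12 encodes the macrophage elastase, which cuts elastin and other matrix proteins. In myeloid-like nuclei it was higher at 21 dpi than at 7 dpi in Ctrl and ADWA11, and lower in Tgfbr2-cKO. At 7 dpi it stood at 120 CPM (116 to 125, 2990 UMIs) in Ctrl, 255 CPM (250 to 260, 11236 UMIs) in ADWA11 and 302 CPM (291 to 314, 2649 UMIs) in Tgfbr2-cKO. At 21 dpi it stood at 263 CPM (254 to 271, 3688 UMIs) in Ctrl, 445 CPM (438 to 453, 14479 UMIs) in ADWA11 and 35.8 CPM (32.6 to 39.3, 450 UMIs) in Tgfbr2-cKO. The Tgfbr2-cKO library was thus the highest of the 3 at 7 dpi and the lowest of all 6 at 21 dpi.

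The log2 ratio of Mmp12 to Ctrl in myeloid-like nuclei was 1.33 (1.25 to 1.41) in Tgfbr2-cKO and 1.08 (1.03 to 1.14) in ADWA11 at 7 dpi. The ratios at 21 dpi were -2.87 (-3.02 to -2.73) in Tgfbr2-cKO and 0.76 (0.71 to 0.82) in ADWA11. Between the 2 times it was 1.13 (1.06 to 1.20) in Ctrl, 0.80 (0.77 to 0.84) in ADWA11 and -3.08 (-3.23 to -2.93) in Tgfbr2-cKO. In the Tgfbr2-cKO library at 21 dpi 5 nuclei held 251 of the 450 UMIs, and without the 5 richest nuclei of each library its ratio to Ctrl was -3.78 and that to 7 dpi -3.76. Both mice of each library were on the same side. Female and male nuclei stood at 111 and 114 CPM in Ctrl, 276 and 205 CPM in ADWA11 and 307 and 281 CPM in Tgfbr2-cKO at 7 dpi. At 21 dpi they stood at 261 and 277 CPM, 421 and 472 CPM, and 34.4 and 27.0 CPM.

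The myeloid-like class was made of different sub-clusters in different libraries. Microglia-like nuclei, marked by P2ry12, Tmem119 and Sall1, made up 1738 of the 2282 myeloid-like nuclei in Tgfbr2-cKO at 7 dpi and 1575 of 4116 in Ctrl, and 47 in ADWA11. At 21 dpi they numbered 319 of 2224 in Tgfbr2-cKO, 135 of 3061 in Ctrl and 1 of 5711 in ADWA11. In the microglia-like sub-cluster Mmp12 stood at 7 dpi at 197 CPM (188 to 206) in Ctrl and 370 CPM (356 to 386) in Tgfbr2-cKO. The log2 ratio within it was 0.91 (0.82 to 1.00), short of 2-fold. An unnamed sub-cluster led by Pld5 and Cfap299 held 2857 of the ADWA11 nuclei at 7 dpi and 74 of those of Ctrl. The ADWA11 ratio at 7 dpi is thus also a value of classes made of different sub-clusters. The same holds for the Mmp12 ratios over time. At 21 dpi the largest sub-cluster of both Ctrl (1076 nuclei) and Tgfbr2-cKO (1098 nuclei) was an unnamed one led by Apoc4 and Dkk2, with Mmp12 at 195 CPM (184 to 207) and 26.9 CPM (23.1 to 31.1). The ratio here was -2.86 (-3.09 to -2.63), beside -2.87 over the whole class. Only 65 nuclei of ADWA11 lay in it at that time, with 1247 CPM (1137 to 1366). Most ADWA11 myeloid-like nuclei were then in another unnamed sub-cluster, at 347 CPM (339 to 355) over 3647 nuclei. That sub-cluster was led by Gm15414 and Tenm4, with Ciita and H2-Eb1 also among its 10 leading genes.

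The densest Mmp12 signal was in a small unnamed sub-cluster of 340 nuclei that carried Gpnmb and Itgax among the listed markers. It was led by Mamdc2, Gm50445 and Cd200, with Dcstamp and Anxa1 last among its 10 leading genes. It stood at 1850 CPM (1733 to 1972, 80 nuclei) in Ctrl and 2991 CPM (2907 to 3077, 215 nuclei) in ADWA11 at 21 dpi, and held 25.4% and 33.3% of the Mmp12 UMIs of the class with 2.61% and 3.76% of its nuclei. The Tgfbr2-cKO library at 21 dpi had 3 nuclei there. Border-associated macrophage-like nuclei, marked by Mrc1, Cd163 and Pf4, were at the other end, with at most 21.3 CPM (15.1 to 29.1) in any library.

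**Figure D3:**
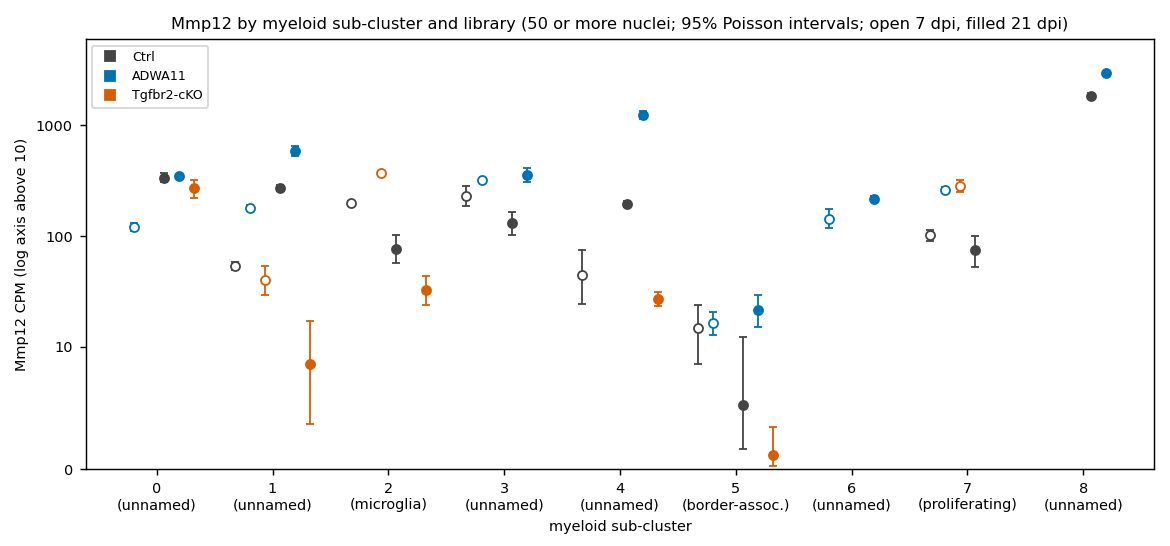
CPM of Mmp12 in the myeloid-like sub-clusters by library, with exact 95% Poisson intervals (counting error only). The Gpnmb sub-cluster reaches 1850 CPM in Ctrl and 2991 CPM in ADWA11 at 21 dpi, and the border-associated macrophage-like sub-cluster stays at or below 21.3 CPM.

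In fibroblast-like nuclei Mmp12 was low, and much of it lay in nuclei with myeloid genes. It stood at 13.5 CPM in Ctrl, 18.7 CPM in ADWA11 and 5.77 CPM (14 UMIs) in Tgfbr2-cKO at 7 dpi, and at 35.1, 31.3 and 1.70 CPM (15 UMIs) at 21 dpi. An unnamed fibroblast-like sub-cluster of 4049 nuclei, led by Inpp5d, Blnk and Tbxas1, genes of myeloid and lymphoid cells, held 62.2% of these UMIs in Ctrl at 7 dpi and 79.6% at 21 dpi. In this sub-cluster 35.9% of nuclei were called doublets, the median nucleus had 2117 UMIs, and the 8 myeloid markers summed to 863 to 1132 CPM, against 77.2 to 89.1 CPM in the rest of the fibroblast-like nuclei. Without it Mmp12 at 7 dpi stood at 6.10 CPM in Ctrl, 10.5 CPM in ADWA11 and 4.68 CPM in Tgfbr2-cKO, and the values at 21 dpi were 8.72, 12.9 and 1.39 CPM. The log2 ratio of Tgfbr2-cKO to Ctrl went from -1.23 (-2.12 to -0.45) to -0.38 (-1.49 to 0.56) at 7 dpi, and from -4.36 (-5.21 to -3.64) to -2.65 (-3.67 to -1.78) at 21 dpi. The direction at 7 dpi was not stable, since the ratio was 2.05 when nuclei were filtered by percentiles over all libraries instead of within each. Leaving it out moved the Mmp3 ratios by less, to 3.19 and 3.65 in Tgfbr2-cKO and ADWA11 at 7 dpi and to 2.43 and 3.14 at 21 dpi.

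Mmp2 encodes gelatinase A, which cuts denatured and basement membrane collagen and is activated by MMP14. It was a gene of fibroblasts, with 56.6% to 74.0% of its UMIs in fibroblast-like nuclei. It stood there at 61.9 CPM (58.4 to 65.5) in Ctrl, 42.5 CPM (40.1 to 44.9) in ADWA11 and 72.5 CPM (62.2 to 84.0) in Tgfbr2-cKO at 7 dpi. The values at 21 dpi were 37.4 CPM (35.5 to 39.4), 48.5 CPM (45.9 to 51.2) and 31.2 CPM (27.7 to 35.2). None of the 4 comparisons with Ctrl reached 2-fold, and the values of the 3 groups changed order between the times. The ratio of 21 to 7 dpi in Tgfbr2-cKO was -1.21 (-1.49 to -0.93), with both mice lower at 21 dpi, from 94.3 to 33.1 CPM in female and from 59.8 to 31.6 CPM in male nuclei. The sub-clusters of this library pair differed, with 139 myofibroblast-like, 37 arachnoid-like and 6 Gabrg3 sub-cluster nuclei early and 4, 397 and 315 late. Within arachnoid-like nuclei the ratio was -2.47 (-3.81 to -0.95) from 7 and 17 UMIs, and within the Gabrg3 sub-cluster it was -0.87 (-2.02 to 0.59) from 6 and 202 UMIs.

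Mmp19, a secreted protease that cuts basement membrane proteins, was found in both main classes. In fibroblast-like nuclei at 7 dpi it stood at 11.7 CPM in Ctrl, 17.2 CPM in ADWA11 and 19.8 CPM in Tgfbr2-cKO, and the values at 21 dpi were 20.6, 22.7 and 19.7 CPM. In myeloid-like nuclei it stood, in the same order of groups, at 11.1, 15.9 and 9.93 CPM and later at 16.4, 29.8 and 23.5 CPM. It passed 2-fold in 1 comparison, that between 21 and 7 dpi in myeloid-like nuclei of Tgfbr2-cKO, with a log2 ratio of 1.24 (0.89 to 1.60). The class differed between these libraries, with 1738 microglia-like nuclei of 2282 at 7 dpi and 319 of 2224 at 21 dpi. In the later library 1 nucleus held 28 of the 295 UMIs.

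Mmp14 encodes the membrane-type protease that cuts fibrillar collagen at the cell surface and activates pro-MMP2. Its level in fibroblast-like nuclei was lowest in both Tgfbr2-cKO libraries. It stood at 260 CPM (252 to 267) in Ctrl, 187 CPM (182 to 192) in ADWA11 and 124 CPM (111 to 139) in Tgfbr2-cKO at 7 dpi, and at 187 CPM (182 to 191), 195 CPM (189 to 200) and 114 CPM (107 to 121) at 21 dpi. The log2 ratio of Tgfbr2-cKO to Ctrl was -1.06 (-1.23 to -0.89) at 7 dpi. It was -0.71 (-0.81 to -0.62) at 21 dpi, and both mice were lower than both Ctrl mice at each time. At 7 dpi the female and male nuclei of Ctrl stood at 273 and 247 CPM and those of Tgfbr2-cKO at 120 and 118 CPM, and at 21 dpi they stood at 183 and 189 CPM and at 96.6 and 131 CPM. Within the myofibroblast-like sub-cluster at 7 dpi the ratio was -0.97 (-1.24 to -0.72). The value at 7 dpi lies at the 2-fold limit, and without a sub-cluster that carries myeloid genes (described with Mmp12) it fell just short of it. At 21 dpi the fibroblast-like class was made of different sub-clusters in these groups. Arachnoid-like nuclei were 613 of 6640 in Ctrl and 397 of 1039 in Tgfbr2-cKO, and those of the Gabrg3 sub-cluster 0 and 315.

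In myeloid-like nuclei at 7 dpi Mmp14 stood at 75.3 CPM in Ctrl, 38.7 CPM in ADWA11 and 28.1 CPM in Tgfbr2-cKO. The log2 ratios to Ctrl were -0.96 (-1.06 to -0.87) and -1.42 (-1.62 to -1.23). The values at 21 dpi were 75.4, 62.1 and 69.9 CPM. Between the times it was at a ratio of 0.00 (-0.11 to 0.11) in Ctrl and 1.32 (1.11 to 1.53) in Tgfbr2-cKO. These are values of a class whose sub-clusters differed, with 1738 microglia-like nuclei of 2282 in Tgfbr2-cKO at 7 dpi and 319 of 2224 at 21 dpi. Within microglia-like nuclei the ratio of Tgfbr2-cKO to Ctrl at 7 dpi was -0.95 (-1.28 to -0.64), short of 2-fold, and the ratio over time was 1.30 (0.85 to 1.72) in Ctrl and 1.33 (0.87 to 1.79) in Tgfbr2-cKO, so the difference between these groups over the whole class was not seen there. The 9 fibroblast markers in myeloid-like nuclei had the same order as Mmp14 at 7 dpi, with 657, 364 and 49.8 CPM. At 21 dpi their order differed from that of Mmp14, with 1048, 524 and 66.8 CPM. The part of fibroblast RNA in the myeloid values was not tested. In endothelial-like nuclei Mmp14 stood at 124, 108 and 66.2 CPM at 7 dpi and at 125, 121 and 65.4 CPM at 21 dpi, with 37 and 132 nuclei in the Tgfbr2-cKO libraries. Mural-like nuclei, the pericytes and smooth muscle cells of vessels, had 132, 152 and 55.1 CPM and 109, 161 and 78.3 CPM in the same order, the last of each from 39 and 66 nuclei. The 9 fibroblast markers summed to 1124 to 3322 CPM in endothelial-like and 2247 to 3145 CPM in mural-like nuclei of Ctrl and ADWA11, against 331 to 655 CPM in the Tgfbr2-cKO libraries, and what part this had in the vascular values was not tested.

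Mmp16 encodes another membrane-type protease from a locus of 266.3 kb, and genes of such different length are not ranked here by CPM. It stood at 465 CPM (455 to 474) in Ctrl, 501 CPM (493 to 510) in ADWA11 and 400 CPM (375 to 426) in Tgfbr2-cKO at 7 dpi. By 21 dpi its level was 683 CPM (675 to 692), 772 CPM (761 to 782) and 357 CPM (345 to 370). The log2 ratio of Tgfbr2-cKO to Ctrl at 21 dpi was -0.94 (-0.99 to -0.88), short of 2-fold, and -1.09 without the 5 richest nuclei of each library. These are values of classes made of different sub-clusters, as given with Mmp14. Oligodendrocyte precursor-like nuclei had 659.5 to 1277 CPM, astrocyte-like nuclei 243 to 355 CPM and neuron-like nuclei 481 to 1037 CPM. Fibroblast-like nuclei held 1.43% of the Mmp16 UMIs in Tgfbr2-cKO at 7 dpi, where neuron-like nuclei held 92.8%, and 79.7% in ADWA11 at 21 dpi.

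Timp1 encodes the secreted inhibitor that inflamed and healing tissue is known to induce. In fibroblast-like nuclei it stood at 27.7 CPM (25.4 to 30.2) in Ctrl, 18.5 CPM (16.9 to 20.1) in ADWA11 and 21.4 CPM (16.0 to 28.1) in Tgfbr2-cKO at 7 dpi. Its values at 21 dpi were 29.7 CPM (27.9 to 31.4), 35.1 CPM (32.9 to 37.4) and 16.0 CPM (13.5 to 18.9). Its log2 ratio of Tgfbr2-cKO to Ctrl at 21 dpi was -0.89 (-1.15 to -0.63), with 25.5 and 30.9 CPM in the female and male nuclei of Ctrl and 8.96 and 20.2 CPM in those of Tgfbr2-cKO. No comparison in fibroblast-like nuclei reached 2-fold, but without the 5 nuclei richest in Timp1 in each library this ratio was -1.19. The sub-clusters of Ctrl and Tgfbr2-cKO differed at 21 dpi, as given with Mmp14. Myeloid-like nuclei had 0.571 to 7.54 CPM, too little to compare.

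Timp2, the inhibitor that also helps MMP14 activate pro-MMP2, stood in myeloid-like nuclei at 182 to 239 CPM in all 6 libraries, and none of the 7 log2 ratios there was beyond -0.39. In fibroblast-like nuclei at 7 dpi it stood at 131 CPM in Ctrl, 106 CPM in ADWA11 and 130 CPM in Tgfbr2-cKO, and the values at 21 dpi were 154, 176 and 112 CPM. The log2 ratios to Ctrl there were -0.00 (-0.18 to 0.17) and -0.45 (-0.55 to -0.36) in Tgfbr2-cKO, and -0.30 (-0.37 to -0.22) and 0.19 (0.14 to 0.25) in ADWA11.

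Timp3, the matrix-bound inhibitor, which also blocks the shedding protease ADAM17, was lower in fibroblast-like nuclei under ADWA11 at both times. At 7 dpi it stood at 173 CPM (167 to 179) in Ctrl, 90.4 CPM (86.9 to 93.9) in ADWA11 and 134 CPM (120 to 149) in Tgfbr2-cKO. After 21 days the level was 173 CPM (169 to 177), 73.5 CPM (70.3 to 76.8) and 185 CPM (176 to 194). The log2 ratio of ADWA11 to Ctrl was -0.94 (-1.01 to -0.86) at 7 dpi and -1.24 (-1.31 to -1.16) at 21 dpi. Female and male nuclei stood at 170 and 178 CPM in Ctrl and 94.4 and 90.7 CPM in ADWA11 at 7 dpi, and at 165 and 191 CPM and 88.9 and 61.1 CPM at 21 dpi, so that both ADWA11 mice were below both Ctrl mice each time. The mice of Tgfbr2-cKO differed from each other, with 195 and 100 CPM at 7 dpi and 245 and 140 CPM at 21 dpi.

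At 21 dpi the class was made of different sub-clusters in the 2 groups. Late inner fibroblast-like nuclei, marked by Fgf13, Cdh18 and Sema3c, were 1382 of 6640 in Ctrl and 116 of 3481 in ADWA11, those of the sub-cluster with myeloid genes 2325 and 568, and those of the Slc47a2 sub-cluster 2013 and 2287. Timp3 in Ctrl was 276 CPM in the first of these and 84.7 CPM in the last, and no ratio of ADWA11 to Ctrl within these 3 sub-clusters or the arachnoid-like one reached 2-fold at 21 dpi. A lower level under ADWA11 was also seen inside several sub-clusters, but not in all. In myofibroblast-like nuclei at 7 dpi Timp3 stood at 188 CPM (179 to 197) in Ctrl and 64.0 CPM (59.6 to 68.6) in ADWA11, a log2 ratio of -1.56 (-1.68 to -1.43). The ratio in arachnoid-like nuclei was -0.98 (-1.27 to -0.68) early and -0.74 (-0.93 to -0.56) late, and in the Slc47a2 sub-cluster at 21 dpi it was -0.77 (-0.89 to -0.65). In late inner fibroblast-like nuclei the ratio was -1.10 (-1.57 to -0.65) early and -0.41 (-0.66 to -0.17) late, and in the sub-cluster with myeloid genes -1.38 (-1.62 to -1.14) and -0.73 (-0.91 to -0.54). At 7 dpi it was above 0 in the Slc47a2 sub-cluster, at 0.69 (0.10 to 1.32) over 54 Ctrl and 117 ADWA11 nuclei, and in an unnamed sub-cluster of 451 and 401 nuclei, at 0.23 (0.09 to 0.38). The latter raised 5 arachnoid markers, Aldh1a2 and Slc6a13 among them, and held more of the Ctrl nuclei at 7 dpi than the 114 named arachnoid-like, so the nuclei with arachnoid markers did not share 1 direction. The vascular classes showed no common direction. Endothelial-like nuclei stood at 228 and 274 CPM in Ctrl and ADWA11 at 7 dpi and at 272 and 243 CPM at 21 dpi, and mural-like nuclei at 177 and 251 CPM and at 341 and 285 CPM. In mural-like nuclei the ratio of ADWA11 to Ctrl was 0.50 (0.14 to 0.87) at 7 dpi and -0.26 (-0.59 to 0.06) at 21 dpi, from 73 to 153 nuclei per library.

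**Figure D4:**
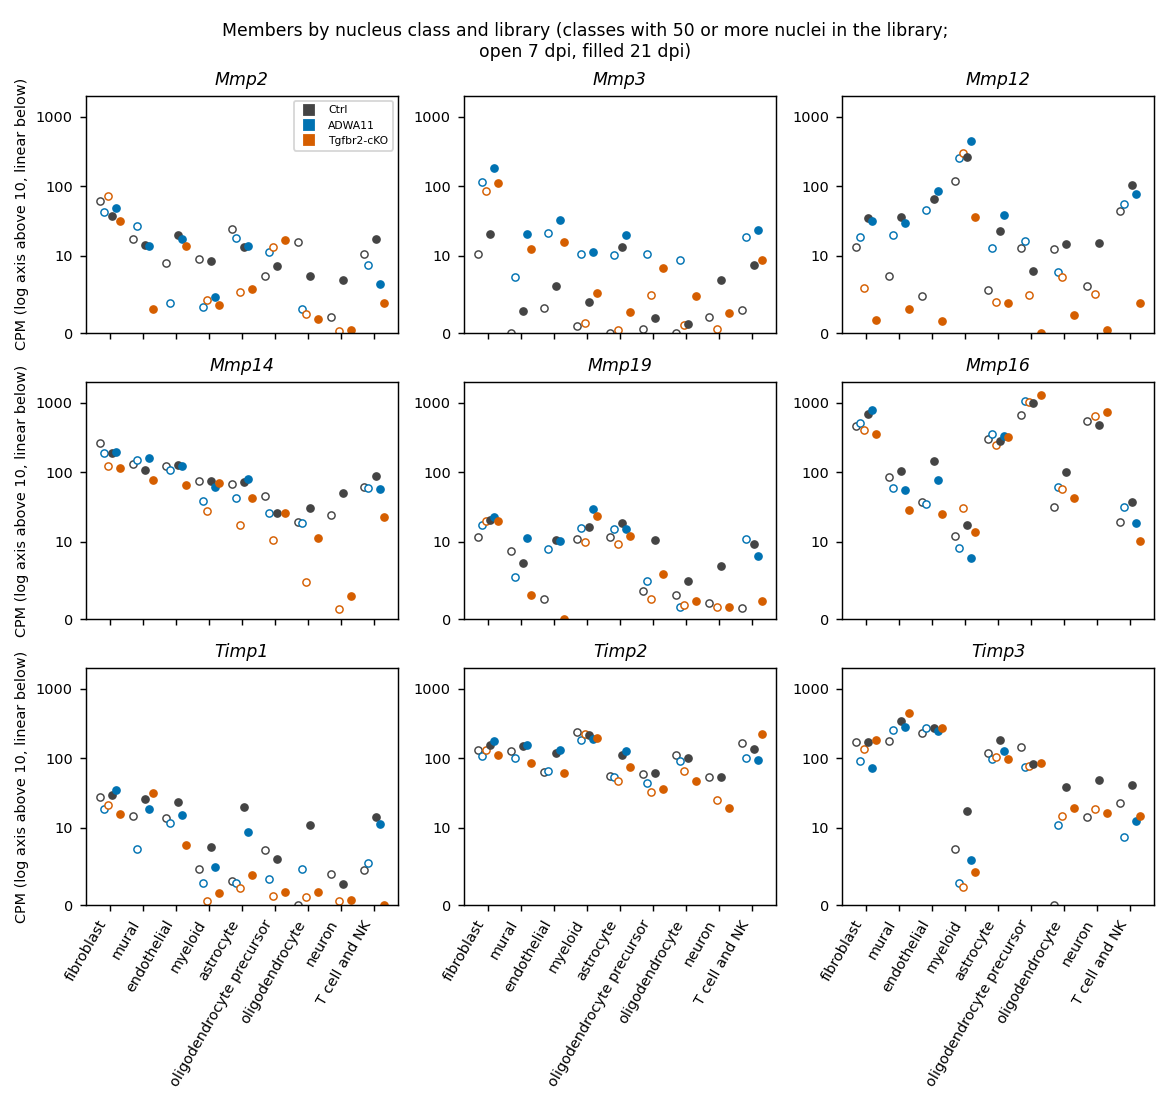
CPM of the 9 members by class and library, for classes with at least 50 nuclei in the library. Mmp3 is concentrated in fibroblast-like nuclei, Mmp12 in myeloid-like nuclei with up to 445 CPM, and Timp3 reaches 445 CPM in mural-like nuclei.

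Over the 9 members in fibroblast-like nuclei, 1 was 2-fold or more higher and 2 were lower in Tgfbr2-cKO at 7 dpi, Mmp3 and then Mmp12 and Mmp14, where 2.64% of all genes tested were lower. Neither lower call held without the sub-cluster with myeloid genes, though the ratio of Mmp14 fell only just short of 2-fold. The Mmp12 call turned to higher, at a log2 ratio of 2.05, with the filter set by percentiles over all libraries. In Tgfbr2-cKO at 21 dpi Mmp3 was higher and Mmp12 lower, where 4.36% of genes were lower, and the Mmp3 call rested on the male mouse, with a ratio of -0.03 over female nuclei. In ADWA11 only Mmp3 was past 2-fold at 7 dpi, and at 21 dpi Mmp3 was higher and Timp3 lower, where 1.95% and 1.79% of genes were lower. The Timp3 call ended with female nuclei alone, at -0.89, and was not made in any of the 4 sub-clusters compared at 21 dpi, at -0.41 to -0.77. The member medians of the log2 ratio in these 4 comparisons were -0.22, -0.45, -0.30 and 0.18, beside medians over all genes tested of 0.08, -0.02, 0.04 and -0.00.

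Between 21 and 7 dpi, Mmp12 was past 2-fold higher in Ctrl, none of the 9 in ADWA11, and Mmp2 lower in Tgfbr2-cKO, where Mmp12 was below the level tested. The Ctrl call of Mmp12, at a log2 ratio of 1.38, ended at 0.52 without the sub-cluster with myeloid genes and at 0.91 with male nuclei alone. Of all genes 6.32% were higher and 3.78% lower in Ctrl, 6.57% and 5.26% in ADWA11, and 4.81% and 6.18% in Tgfbr2-cKO. The member medians were 0.24, 0.62 and -0.14, beside 0.03, 0.01 and -0.06 over all genes. Mmp3 had ratios of 0.92 (0.70 to 1.15), 0.67 (0.61 to 0.73) and 0.40 (0.18 to 0.62) over time, all short of 2-fold.

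In myeloid-like nuclei, Mmp12 and Mmp16 were past 2-fold higher and Mmp2 and Mmp14 lower among 6 members tested in Tgfbr2-cKO at 7 dpi, against 9.1% of all genes past 2-fold either way. Within microglia-like nuclei of this library neither the Mmp12 nor the Mmp14 ratio reached 2-fold. At 21 dpi Mmp2, Mmp12 and Timp3 were lower in Tgfbr2-cKO among 7 tested, against 5.61%. In ADWA11, Mmp3 and Mmp12 were higher and Mmp2 and Timp3 lower among 8 at 7 dpi, against 5.8%, and Mmp3 was higher and Mmp2, Mmp16 and Timp3 lower among 9 at 21 dpi, against 9.44%. Over time Mmp12 and Timp3 were higher in Ctrl, none in ADWA11, and Mmp14 and Mmp19 higher and Mmp12 and Mmp16 lower in Tgfbr2-cKO, against 6.89%, 9.93% and 9.2%. The myeloid-like class was made of different sub-clusters at 7 and 21 dpi.

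Several of these myeloid values were low, in nuclei that also held RNA of other classes. Mmp2 had 3.43 to 9.54 CPM, Timp3 2.40 to 17.4 CPM and Mmp3 0.926 to 11.5 CPM in myeloid-like nuclei. The 9 fibroblast markers summed there at 7 dpi to 657 CPM in Ctrl, 364 CPM in ADWA11 and 49.8 CPM in Tgfbr2-cKO, and the sums at 21 dpi were 1048, 524 and 66.8 CPM. Timp3 had the same order of groups as these markers at each time. Mmp2 was highest in the Ctrl libraries, as the markers were. It was not lower in Tgfbr2-cKO (4.22 CPM) than in ADWA11 (3.43 CPM) at 7 dpi. Mmp3 was highest in ADWA11, as it also was in fibroblast-like nuclei. Mmp16 had 7.97 to 17.7 CPM in 5 libraries and 30.8 CPM in Tgfbr2-cKO at 7 dpi, where neuron markers summed to 260 CPM against 3.78 to 82.4 CPM in the other libraries. Mmp12, at 35.8 to 445 CPM, was higher in myeloid-like than in fibroblast-like nuclei in each library. The part of other classes' RNA in these values was not tested.

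**Figure D5:**
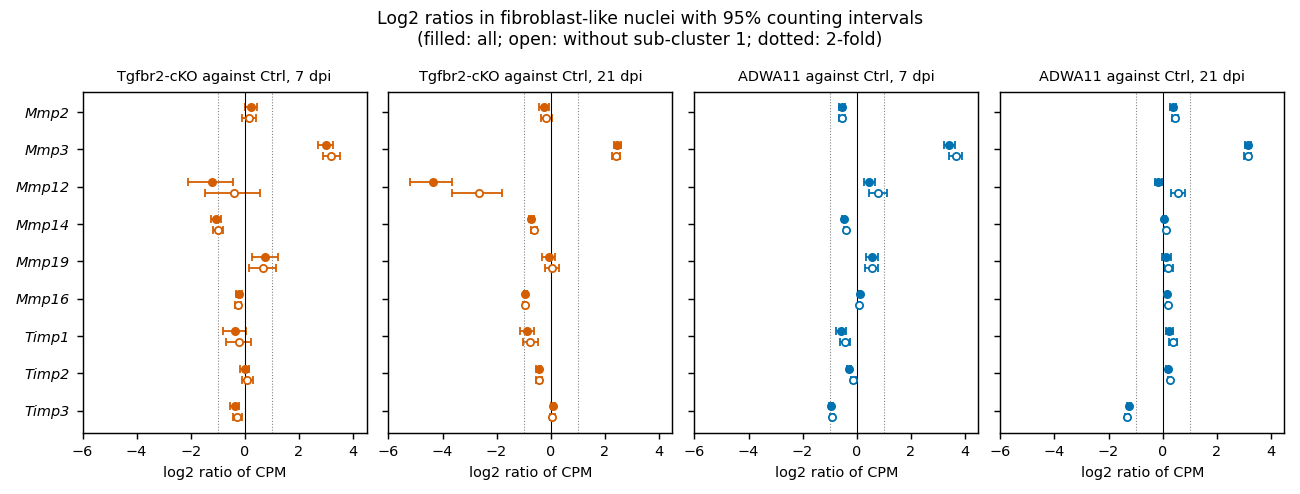
Log2 ratio of each member in fibroblast-like nuclei in the 4 comparisons with Ctrl, with exact 95% conditional intervals (counting error only) and the 2-fold limits marked. Filled points are all fibroblast-like nuclei, and open points leave out the sub-cluster with myeloid genes. Over all fibroblast-like nuclei Mmp3 stands between 2.47 and 3.41.

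A list of 31 other genes of the pathway held further MMPs, other inhibitors and the plasminogen activators and proteases that activate or clear MMPs, and 16 or 17 of them were tested in fibroblast-like nuclei. In Tgfbr2-cKO, A2m, a broad protease trap, was past 2-fold higher at 7 dpi, and at 21 dpi Mmp9 was higher and Mmp13 lower. In ADWA11 at 21 dpi, Mmp27 was higher and A2m lower. A2m was also among the 10 leading genes of the astrocyte-like cluster. Astrocyte-like nuclei numbered 174 in Ctrl and 371 in Tgfbr2-cKO at 7 dpi. The 6 astrocyte markers summed in fibroblast-like nuclei of these libraries to 783 and 792 CPM. What part RNA carried over from astrocytes had in the A2m values, here and over time, was not tested. Mmp13, a collagenase, stood at 7 dpi at 134 CPM in Ctrl, 140 CPM in ADWA11 and 76.2 CPM in Tgfbr2-cKO, and the values at 21 dpi were 95.8, 183 and 24.8 CPM. The Mmp9 value rested on 78 UMIs, of which 1 nucleus held 59.

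Over time, the genes of this list past 2-fold included A2m, higher in Ctrl, and Mmp27, higher in ADWA11. Mmp11 and Plau were lower in ADWA11, and Mmp13, Mmp23 and Serpine2 were lower in Tgfbr2-cKO. In myeloid-like nuclei 11 or 12 were tested, and those past 2-fold against Ctrl included Mmp13, lower in Tgfbr2-cKO at both times, A2m and Plau, lower in Tgfbr2-cKO at 21 dpi, and A2m, lower in ADWA11 at 21 dpi. Over time Mmp27 was higher in ADWA11 and Tgfbr2-cKO, and Reck, Plau and Serpine2 were lower in ADWA11. The inhibitor Serpine2 stood there at 7 dpi at 116 CPM in Ctrl, 24.3 CPM in ADWA11 and 207 CPM in Tgfbr2-cKO, and at 21 dpi at 80.9, 8.21 and 120 CPM, so ADWA11 was lowest each time. Microglia-like nuclei numbered 47 and 1 in the ADWA11 libraries, against 1575 and 135 in Ctrl and 1738 and 319 in Tgfbr2-cKO, so these are values of classes made of different sub-clusters. Mmp27 stood at 35.2, 77.6 and 19.5 CPM and at 49.9, 182 and 69.4 CPM, so ADWA11 was highest each time.

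The genes whose levels went most closely with each member were sought over 53 profiles of class and library, among 12986 genes, as Pearson correlation of log2(CPM + 1). These profiles share libraries and depth, so the values are descriptions. Mmp12 went with Lgals3 (0.871), Lipa and Tmem106a, and Mmp2 with Fbln1 (0.842), Bnc2 and Loxl1. Timp1 went with Lox (0.830), Serpinh1 and Ltbp2, and Timp3 with Parva (0.930), Ptpn14 and Zfp423. Mmp14 went with Lpp (0.881), Tram2 and Fcgrt, Mmp16 with Sgcd (0.924), Plekha6 and Clip4, Mmp19 with Ahnak2 (0.809), Loxl3 and Pyroxd2, and Timp2 with Mdfic (0.853), Tmem140 and Mylip. Mmp3 had the weakest match, with Ggact (0.717), Adpgk and March6.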

How the data were processed

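Processed snRNA-seq counts of 6 libraries were used, 1 per group, each from DAPI-sorted nuclei of 1 male and 1 female mouse, made with 10x 3' chemistry. The authors deposited whole-number UMI counts per gene and nucleus, made with Cell Ranger 7.2.0 per the file headers (7.1.0 in the submitters' processing notes) on mm10. Introns add to counts of nuclear RNA, so long genes read high and levels are not compared between genes. Nuclei in the bottom and top 2.5 percentile tails, the limits the authors used, were removed, here within each library, leaving 61917 of 67360. After SCTransform (sctransform 0.4.2, Seurat 5.3.0, R 4.3.3), 30 principal components were clustered at a resolution of 0.5, fibroblast-like nuclei at 0.2 and myeloid-like nuclei at 0.25. A cluster was named where at least 3 listed markers were raised, at least 2-fold and in at least 5% of nuclei, unless another list had as many raised or more genes among the 10 leading ones, and the names are rebuilt, not the authors'. Doublets were called by simulation (6339 nuclei), and only clusters with over 50% of called nuclei were left out. UMIs were summed per class and library, with exact Poisson intervals and exact conditional intervals of ratios (95%, scipy 1.17.1), covering counting error only. The check on simulated data drew Poisson counts, so it cannot tell whether the intervals fit UMIs gathered in few nuclei. A gene was tested at a mean of 5 CPM or more, and 2-fold (log2 of 1) was the limit of a call. Intervals of at least or at most used a floor of 3 counts. The 9 members, the 31 pathway genes and the markers were chosen with earlier results of these data known, and all members are described, with the 3 most alike genes for each. The values of 1 pathway gene are not reported here. Coordinates are from GENCODE M21 (GRCm38), which matched 32158 of 32285 features. Alternatives were TMM scaling, mean CPM per nucleus, log-normalised clustering, percentiles over all libraries, removal of called doublets, each mouse alone, removal of the 5 richest nuclei, no low-level filter and, chosen after seeing the data, removal of the fibroblast-like sub-cluster with myeloid genes.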

Additional observations from a re-analysis of the deposited data

Results flagged for a closer look

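Mmp12 went in opposite directions in 3 pairs of comparisons, and the difference within each pair was not tested, since each group was 1 library. In myeloid-like nuclei its log2 ratio of Tgfbr2-cKO to Ctrl was 1.33 at 7 dpi and -2.87 at 21 dpi. Its log2 ratio of 21 to 7 dpi in myeloid-like nuclei was 1.13 in Ctrl and -3.08 in Tgfbr2-cKO. The myeloid pairs are drawn from the same Ctrl and Tgfbr2-cKO libraries, so they are not separate results. They are also values of classes made of different sub-clusters. Microglia-like nuclei went from 1738 of 2282 at 7 dpi to 319 of 2224 at 21 dpi in Tgfbr2-cKO, and from 1575 of 4116 to 135 of 3061 in Ctrl. Within microglia-like nuclei the ratio of Tgfbr2-cKO to Ctrl at 7 dpi was short of 2-fold. In fibroblast-like nuclei the log2 ratio of 21 to 7 dpi was 1.38 in Ctrl and -1.76 in Tgfbr2-cKO. The latter came from 14 and 15 UMIs and was below the level tested, and the Ctrl ratio was short of 2-fold with male nuclei alone. Without the sub-cluster with myeloid genes these fibroblast values were 0.52 and -1.75.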

How the results depend on the processing

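Of 1071 alternative values, 831 moved by less than counting error or stayed within the limit set for counts, 238 moved and 2 turned direction. Much of this came from the mice, with 59 moved, 1 turned and 66 not moved for female nuclei alone, and 62 moved and 64 not for male nuclei alone. With female nuclei alone the Mmp3 log2 ratio of Tgfbr2-cKO to Ctrl at 21 dpi in fibroblast-like nuclei was -0.0267, and with percentiles over all libraries that of Mmp12 at 7 dpi was 2.05. The causes were not tested. The number of members past 2-fold in fibroblast-like nuclei, given without any other change, was 3 in Tgfbr2-cKO at 7 dpi and became 1 without the sub-cluster with myeloid genes. In Tgfbr2-cKO at 21 dpi 2 became 4 (Mmp16 and Timp1 lower as well) without the 5 richest nuclei, and in ADWA11 at 21 dpi 2 became 1 (Timp3 lost) with female nuclei. Over time, 1 in Ctrl became 3 with female nuclei, 0 with male nuclei, and 2 with percentiles over all libraries, without called doublets or without the 5 richest nuclei. Over time in ADWA11, 0 became 1 with female nuclei, log-normalised clustering or percentiles over all libraries, and 2 with male nuclei. Over time in Tgfbr2-cKO, 1 became 3 with female nuclei and 2 with mean CPM per nucleus, no low-level filter or percentiles over all libraries. TMM scaling shifted the median of all genes by -0.165 in fibroblast-like nuclei of Tgfbr2-cKO at 7 dpi, and by -0.116 (Tgfbr2-cKO at 7 dpi), 0.112 (ADWA11 at 21 dpi) and -0.110 (Ctrl over time) in myeloid-like nuclei. No paired analysis was possible because each group was 1 library, and depth limits values such as Mmp12 in fibroblast-like nuclei of Tgfbr2-cKO (14 and 15 UMIs) and Mmp3 in its myeloid-like nuclei at 7 dpi (12 UMIs).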
